A study of Mus musculus with 18 samples.

Results

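The PYHIN genes (also called the HIN-200 or Ifi200 genes) of endothelial cells (ECs) were followed here in the normal mouse mammary fat pad and in 2 kinds of breast tumour after a STING agonist. Members were chosen by gene name, with earlier results of these data known. Of 10 gene symbols looked up in a table of 16248 genes, 6 had a row (Ifi203, Ifi204, Ifi205, Ifi207, Ifi211 and Mndal). Ifi206, Ifi208, Ifi209 and Ifi213 had no row, and since each listed gene had a value above 0 in all 18 libraries, nothing can be said of their level. All 6 genes present were also among the 13983 tested genes, those with at least 1 FPKM (fragment counts corrected for gene length and library size) in at least 3 libraries. Ifi205 reached that level only through the implanted cGAMP libraries, so that a gene that stayed low there would not have been tested, and its difference in that group is to be read with this in mind.

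All ECs were sorted as live CD45-, CD31+ cells from female FVB mice and profiled by bulk RNA sequencing. The normal ECs came from the fat pad of wild-type mice. The MMTV-PyMT ECs came from spontaneous tumours of mice in which a mouse mammary tumour virus promoter drives the polyoma middle T oncogene in mammary epithelium, treated from 9 weeks of age. The implanted ECs came from tumours that cultured MMTV-PyMT tumour cells formed in the fat pad of wild-type FVB recipients aged 8 to 9 weeks at implantation, so the ECs of this group belong to hosts without the transgene. Ages of the normal mice are not given in the sources used here. Each tissue was injected locally with phosphate-buffered saline (PBS) or with 14 µg of 3'3'cGAMP in 70 µl, and collected 3 hours later. Each of the 6 groups held 3 libraries, stated as 3 mice from 3 independent experiments, with no record of which library belongs to which experiment. P-values therefore measure the spread between libraries of a group.

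PYHIN proteins pair an N-terminal pyrin domain, which mediates contacts between proteins, with 1 or 2 C-terminal HIN domains, which bind double-stranded DNA. Some of them sense DNA in the nucleus or cytosol: Aim2 builds an inflammasome, and Ifi204 (p204, often set beside human IFI16) acts together with STING, the receptor for cyclic dinucleotides such as cGAMP. Several are classical interferon-inducible genes of macrophages. Their locus on mouse chromosome 1 differs in gene content between inbred strains, and the reads of these FVB mice were aligned to a reference built from C57BL/6J.

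In GENCODE M21 (GRCm38), the 6 genes lay within 308.4 kb of chromosome 1, from 173723427 to 174031810, all on the minus strand. Going up the chromosome, these were Ifi207 (chr1:173723427-173741747, ENSMUSG00000073490.11), Ifi204 (chr1:173747293-173766943, ENSMUSG00000073489.6), Mndal (chr1:173849126-173942491, ENSMUSG00000090272.8), Ifi211 (chr1:173896345-173913046, ENSMUSG00000026536.9), Ifi203 (chr1:173920407-173942672, ENSMUSG00000039997.16) and Ifi205 (chr1:174011998-174031810, ENSMUSG00000054203.7). The span of Mndal encloses Ifi211 and most of Ifi203, and 4.3% of the exon bases of Mndal are shared with another gene model. The genes are close copies in places. Of all 75-base words in its transcripts (the read length), Ifi211 shared 63.6% with transcripts of other genes, with Ifi205 the largest sharer (40.6%). The share was 16.6% for Ifi205, 13.2% for Ifi204, 11.1% for Mndal, 5.7% for Ifi203 and 2.8% for Ifi207. How reads with several matches were counted is not stated in the sources used here, and levels of Ifi211 are the most uncertain of the 6 for that reason.

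The sequences just before the start sites are shown because 5 of the genes share a stretch there. RefSeq windows of 300 bases (250 before the start site and 50 from it on, build GRCm38.p6) were at hand for 5 of the 6 genes, Ifi204 being the one without. Each of these 5 genes had, on its own strand, a match to GAAANNGAAA, the core of the interferon-stimulated response element. Letters were searched on both strands, and 1131 of all 32851 promoter windows held a match (3.44%). Each line gives 30 bases, 5′ to 3′ on the minus strand, with the match in capitals.

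Ifi207, chr1:173741831-173741860: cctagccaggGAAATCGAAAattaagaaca
Ifi203, chr1:173942508-173942537: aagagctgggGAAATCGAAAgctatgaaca
Mndal, chr1:173880204-173880233: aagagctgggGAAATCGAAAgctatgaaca
Ifi211, chr1:173913064-173913093: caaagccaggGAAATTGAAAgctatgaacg
Ifi205, chr1:174031870-174031899: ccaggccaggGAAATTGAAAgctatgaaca

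The match began 35 bases before the start site in Ifi203, 36 in Mndal, 37 in Ifi211, 41 in Ifi207 and 134 in Ifi205. Ifi203 and Mndal each have 2 windows, and these lines come from the window that holds the forward match. For Mndal, the printed stretch lies in an exon of another GENCODE transcript of the gene, and the other 4 overlap no exon. Over the 70 bases around the match, Ifi203 and Mndal were identical at 70 of 70 positions, and Ifi211 and Ifi205 at 62 of 70. The second Mndal window and the Ifi205 window each held 1 further match on the opposite strand. Of the 4 genes with no row in the table, Ifi206, Ifi208 and Ifi213 also held a match, and Ifi209 did not. The letters TTCNNNGAA (the gamma-activated site, found in 8.3% of all windows) had no match in any window of the 5 genes. A kappa-B site was found in 8.46% of all windows, and among the 5 genes only in the window of Ifi203 that holds no GAAANNGAAA. A match to these letters is a description of the sequence and does not show that a factor binds there.

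The 250 bases upstream of Ifi207, the gene with the largest change in implanted ECs, and of Ifi211 are given in full, again on the minus strand with the match in capitals, since they show how far the copies resemble each other.

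Ifi207, chr1:173741810-173742059: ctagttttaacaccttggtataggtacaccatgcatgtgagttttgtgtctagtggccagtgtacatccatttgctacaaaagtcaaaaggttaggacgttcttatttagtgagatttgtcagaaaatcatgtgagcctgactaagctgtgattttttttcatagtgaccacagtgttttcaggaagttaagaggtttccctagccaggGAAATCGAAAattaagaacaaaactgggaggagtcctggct
Ifi211, chr1:173913047-173913296: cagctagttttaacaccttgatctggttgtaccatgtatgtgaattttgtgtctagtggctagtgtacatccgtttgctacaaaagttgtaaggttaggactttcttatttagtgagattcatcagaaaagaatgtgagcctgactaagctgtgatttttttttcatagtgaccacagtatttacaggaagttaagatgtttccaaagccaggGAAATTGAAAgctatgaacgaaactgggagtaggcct

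Recovered whole reads per library ran from 9184583 to 12200488, a 1.33-fold range. All 8 endothelial markers had rows, with a summed level of 644 to 1691 FPKM. Markers of other cells were present too. Epithelial or tumour markers (7 of 7 with a row) summed to 260 to 966 FPKM, mural markers (5 of 5) to 166 to 1020, fibroblast markers (5 of 5) to 47.3 to 602, myeloid markers (9 of 10, no row for Itgam) to 75.1 to 532 and leukocyte markers (6 of 7) to 3.82 to 93.8 FPKM, while none of the 4 adipocyte markers had a row. Libraries normal cGAMP 1 and implanted cGAMP 2 stood apart with summed leukocyte markers of 87.1 and 93.8 FPKM, against 9.55 and 9.66, and 15.2 and 17.1, in the other libraries of their groups. In implanted cGAMP 2 myeloid markers summed to 532 FPKM, against 154 and 177 in its 2 group mates. In the MMTV-PyMT PBS libraries, epithelial or tumour markers summed to 893 to 966 FPKM, above the 644 to 795 of endothelial markers. In MMTV-PyMT cGAMP libraries these ranges were 616 to 866 and 730 to 1004. Mural markers in the normal PBS libraries summed to 908 to 1020 FPKM, beside 871 to 994 for endothelial markers. The lists hold different genes, so these sums do not give shares of cells. In bulk samples a change in the number of cells of a type and a change in RNA per cell cannot be told apart.

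First, the question was how the PYHIN genes of ECs answer to cGAMP in each tissue. After cGAMP, 5 of 6 genes rose in normal ECs and in MMTV-PyMT ECs, and all 6 rose in implanted ECs. Ifi205, which rose in implanted ECs alone, was tested only through its cGAMP libraries there. Called here means an adjusted p under 0.05 (limma, Benjamini-Hochberg over all tested genes) and a change of at least 1 on the log2(FPKM + 1) scale. In normal ECs 3.02% of all tested genes were called higher, against 2.49% in MMTV-PyMT and 6.13% in implanted tissue. Values given in threes below follow the order normal, MMTV-PyMT, implanted. The median change of the 6 genes was 1.67, 1.85 and 2.97, beside a median of all tested genes of -0.04, -0.04 and -0.01. Changes on this scale understate those of low genes, and folds of mean FPKM, which add nothing to the values, are therefore given as well.

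**Figure D1:**
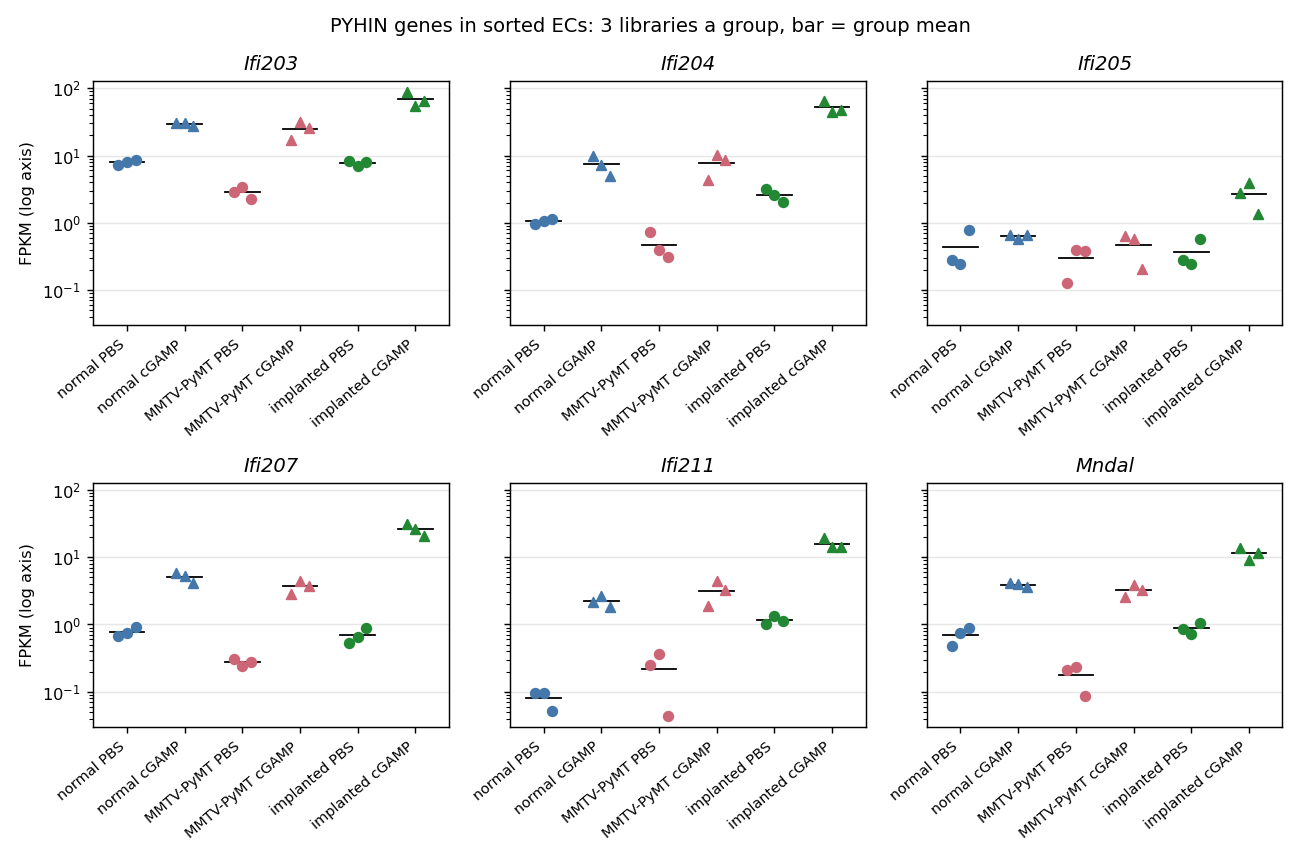
FPKM (log axis) of the 6 PYHIN genes in each of the 18 libraries, by tissue and treatment; circles are PBS libraries, triangles cGAMP libraries and black bars the mean of 3 libraries. The implanted cGAMP libraries are the highest for each gene, and Ifi205, Ifi207, Ifi211 and Mndal start from under 0.4 FPKM in the MMTV-PyMT PBS libraries.

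Ifi203 (p203) had the highest level per length of the 6 genes in every group. In normal ECs it measured 7.12, 8.10 and 8.44 FPKM under PBS, and 30.8, 30.7 and 27.2 FPKM under cGAMP. In MMTV-PyMT ECs the values were 2.91, 3.37 and 2.23 FPKM under PBS, and 17.3, 31.3 and 25.7 FPKM under cGAMP. In implanted ECs they were 8.19, 7.09 and 8.0 FPKM under PBS, and 87.6, 55.0 and 65.7 FPKM under cGAMP. No cGAMP library overlapped the PBS libraries of its tissue, and the MMTV-PyMT PBS libraries lay below all others. Mean FPKM rose 3.75-fold, 8.73-fold and 8.95-fold. The changes were 1.78 ± 0.18 (SE, limma, adjusted p = 3.44e-06), 2.72 ± 0.18 (adjusted p = 2.02e-08) and 2.98 ± 0.18 (adjusted p = 3.66e-09) on the log2(FPKM + 1) scale.

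Ifi204, the DNA sensor known to act with STING, rose from a low level. Normal ECs held 0.951, 1.07 and 1.14 FPKM under PBS, and 10, 7.24 and 4.96 FPKM under cGAMP. MMTV-PyMT ECs held 0.719, 0.389 and 0.309 FPKM under PBS, and 4.4, 10.2 and 8.49 FPKM under cGAMP. Implanted ECs held 3.22, 2.60 and 2.07 FPKM under PBS, and 63.9, 43.8 and 47.7 FPKM under cGAMP. The treatments did not overlap in any tissue, and the cGAMP libraries of normal and MMTV-PyMT ECs covered the same range while those of implanted ECs lay far above. The mean rose 7.03-fold, 16.3-fold and 19.7-fold. On the log2(FPKM + 1) scale the changes were 1.99 ± 0.25 (SE, limma, adjusted p = 2.43e-05), 2.51 ± 0.25 (adjusted p = 2.12e-06) and 3.86 ± 0.25 (adjusted p = 5.75e-09).

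Ifi207 changed the most in implanted ECs. Under PBS it measured 0.668, 0.739 and 0.917 FPKM in normal ECs, 0.308, 0.243 and 0.276 FPKM in MMTV-PyMT ECs, and 0.532, 0.660 and 0.887 FPKM in implanted ECs. Under cGAMP it measured 5.77, 5.22 and 4.19 FPKM in normal ECs, 2.88, 4.44 and 3.72 FPKM in MMTV-PyMT ECs, and 31.6, 25.9 and 20.5 FPKM in implanted ECs. Normal and implanted ECs thus overlapped under PBS and were far apart under cGAMP. The mean rose 6.53-fold, 13.4-fold and 37.5-fold. The change in implanted ECs was 3.98 ± 0.15 (SE, limma, adjusted p = 2.17e-11), rank 26 of 13983 tested genes from the highest. In normal and MMTV-PyMT ECs it was 1.77 ± 0.15 (adjusted p = 4.87e-07) and 1.86 ± 0.15 (adjusted p = 2.09e-07).

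Mndal (myeloid nuclear differentiation antigen-like) had its lowest values in MMTV-PyMT ECs under PBS, at 0.210, 0.231 and 0.0877 FPKM, and reached 2.59, 3.87 and 3.31 FPKM there under cGAMP. Normal ECs went from 0.472, 0.751 and 0.874 FPKM to 4.11, 3.94 and 3.56 FPKM, and implanted ECs from 0.864, 0.723 and 1.04 FPKM to 13.8, 8.97 and 11.4 FPKM. No tissue's treatments overlapped. In folds of the mean, MMTV-PyMT ECs had the larger rise at 18.5-fold, against 5.54-fold in normal and 13-fold in implanted ECs. On the log2(FPKM + 1) scale the order differed, with 1.52 ± 0.14 in normal (SE, limma, adjusted p = 1.48e-06), 1.85 ± 0.14 in MMTV-PyMT (adjusted p = 1.27e-07) and 2.71 ± 0.14 in implanted ECs (adjusted p = 7.86e-10). Behind the MMTV-PyMT PBS values stood 10, 9 and 4 reads.

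Ifi211 was barely detected in the resting normal fat pad. Its 3 normal PBS libraries held 2, 2 and 1 reads (0.0949, 0.0945 and 0.0517 FPKM), and its cGAMP libraries 44, 54 and 35 reads (2.15, 2.69 and 1.80 FPKM). MMTV-PyMT ECs went from 0.253, 0.362 and 0.0441 FPKM to 1.86, 4.42 and 3.21 FPKM, and implanted ECs from 1.02, 1.33 and 1.13 FPKM to 19.3, 14.4 and 14 FPKM. Each tissue's treatments were separate, and implanted PBS libraries lay above all normal and MMTV-PyMT PBS libraries. Summed over the libraries of a group, the read ratio of cGAMP to PBS was 27.3 in normal ECs (exact 95% counting interval 11.4 to 85.6), 14.7 in MMTV-PyMT ECs (8.51 to 27.4) and 13.6 in implanted ECs (10.4 to 18.1). These intervals cover counting error only, since reads carry no molecular identifiers. The log2(FPKM + 1) changes ran the other way, with 1.56 ± 0.19 (SE, limma, adjusted p = 1.83e-05), 1.73 ± 0.19 (adjusted p = 6.99e-06) and 2.96 ± 0.19 (adjusted p = 5.53e-09).

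Ifi205 (D3) stayed low in normal and MMTV-PyMT ECs. In normal ECs it measured 0.284, 0.242 and 0.773 FPKM under PBS, and 0.648, 0.575 and 0.661 FPKM under cGAMP. MMTV-PyMT ECs held 0.126, 0.398 and 0.377 FPKM under PBS, and 0.641, 0.574 and 0.203 FPKM under cGAMP. Implanted ECs held 0.282, 0.243 and 0.581 FPKM under PBS, and 2.75, 3.93 and 1.37 FPKM under cGAMP. The treatments overlapped in normal and MMTV-PyMT ECs and were separate in implanted ECs alone. The changes were 0.20 ± 0.22 in normal (SE, limma, adjusted p = 0.517), 0.17 ± 0.22 in MMTV-PyMT (adjusted p = 0.661) and 1.37 ± 0.22 in implanted ECs (adjusted p = 1.15e-04). Its highest value, 3.93 FPKM, fell in implanted cGAMP 2, the library with the highest leukocyte and myeloid markers. Without this library the change in implanted ECs was 1.13 (adjusted p = 5.52e-04).

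**Figure D2:**
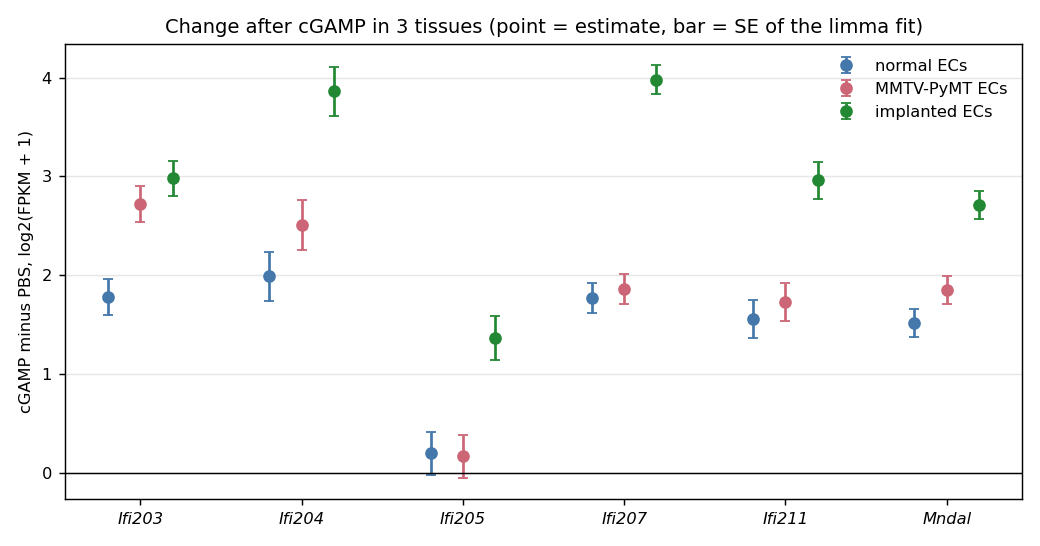
Change of each PYHIN gene after cGAMP on the log2(FPKM + 1) scale in normal, MMTV-PyMT and implanted ECs; points are estimates and bars the SE of the limma fit over 18 libraries. Changes in implanted ECs reach 3.98 (Ifi207), and the points of Ifi205 in the other 2 tissues lie at 0.20 and 0.17.

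For the other genes, implanted cGAMP 2 was the lowest of its group (Ifi203, Ifi204 and Mndal) or lay between its 2 group mates (Ifi207 and Ifi211). The part of other cells in these rises was not tested. With both leukocyte-rich libraries left out, an alternative chosen after seeing the data, 5, 5 and 6 of the genes were called. In MMTV-PyMT ECs under cGAMP the libraries kept 1 order across genes, with library 2 the highest for 5 of 6 genes and library 1 the lowest for the same number, Ifi205 being the exception.

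Next, the comparison addressed whether the cGAMP effect itself differed between tissues. On the log2(FPKM + 1) scale the effect was larger in implanted than in normal ECs for 6 of 6 genes, beside 12.5% of all tested genes past this test (adjusted p under 0.05) in that direction. It was larger in implanted than in MMTV-PyMT ECs for 5 of 6 genes, beside 7.34%. It was larger in MMTV-PyMT than in normal ECs for Ifi203 alone, at 0.94 ± 0.26 (SE, limma, adjusted p = 0.0358), beside 5.48% of all tested genes. The last call was lost when any of 9 single libraries was left out, among them each of the 3 normal cGAMP libraries, and with the replicate number as a block (limma, adjusted p = 0.0564), whereas it was kept with a pseudocount of 0.1 (1.17, adjusted p = 0.0194) and with voom on recovered reads (1.20, adjusted p = 0.0137). The first 2 of these comparisons share the implanted libraries. The counts of both include Ifi205, which was tested only through its implanted cGAMP libraries, so that its larger effect there carries no weight.

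Ifi207 had the largest difference, at 2.21 ± 0.21 for implanted minus normal (SE, limma, adjusted p = 8.68e-06) and 2.12 ± 0.21 for implanted minus MMTV-PyMT ECs (adjusted p = 3.94e-05), rank 28 and 11 of 13983. Ifi204 followed at 1.87 ± 0.35 (adjusted p = 0.00158) and 1.35 ± 0.35 (adjusted p = 0.0195). Ifi203 differed by 1.20 ± 0.26 from normal ECs (adjusted p = 0.00417), while its difference from MMTV-PyMT ECs was 0.26 ± 0.26 (adjusted p = 0.585). For Ifi205, Ifi211 and Mndal the difference from normal ECs was 1.17, 1.39 and 1.18, and that from MMTV-PyMT ECs 1.20, 1.22 and 0.86, with limma's adjusted p between 8.51e-04 and 0.0187.

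The dependence of these differences on the scale was unequal between genes. For Ifi211, implanted minus normal changed from 1.39 to -0.02 ± 0.51 (SE, limma, adjusted p = 0.986) with a pseudocount of 0.1 in place of 1, and to -0.70 ± 0.76 (adjusted p = 0.578) with voom (limma's weights for counts) on the recovered reads, which work on ratios. For Mndal, implanted minus MMTV-PyMT changed from 0.86 to -0.08 (adjusted p = 0.922) and -0.55 (adjusted p = 0.60). For Ifi204 that difference was 0.50 (adjusted p = 0.550) with the pseudocount of 0.1 and 0.33 (adjusted p = 0.825) with voom. Voom called 1115, 592 and 1823 of all genes after cGAMP in either direction. For the differences of effects with voom, 2 of 6 genes (Ifi203 and Ifi207) passed for implanted minus normal, and 0 of 6 for implanted minus MMTV-PyMT ECs. Beside these, 2449 and 1518 of all tested genes passed in either direction. Of the calls lost for implanted minus normal, those of Ifi204 and Mndal kept most of their size, at 1.60 ± 0.45 and 1.55 ± 0.56 for Ifi204 (pseudocount of 0.1 and voom, limma's adjusted p = 0.0204 and 0.0642) and 1.20 ± 0.35 and 1.16 ± 0.42 for Mndal (adjusted p = 0.0277 and 0.0652). The estimate of Ifi205 grew with its error, to 1.94 ± 0.68 (adjusted p = 0.0597) and 2.0 ± 0.81 (adjusted p = 0.102). For implanted minus MMTV-PyMT, Ifi207 stood at 1.73 ± 0.30 (adjusted p = 0.00160) and 1.54 ± 0.55 (adjusted p = 0.0815), and Ifi205 at 2.02 ± 0.68 (adjusted p = 0.0693) and 2.03 ± 0.88 (adjusted p = 0.158). Hence Ifi203 and Ifi207 passed the test of a larger cGAMP effect in implanted than in normal ECs on all 3 scales. No gene passed that against MMTV-PyMT ECs on all 3, although the estimate of Ifi207 stayed above 1. That of Ifi205 did too, but this gene was tested only through its implanted cGAMP libraries, and its differences lend no support.

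**Figure D3:**
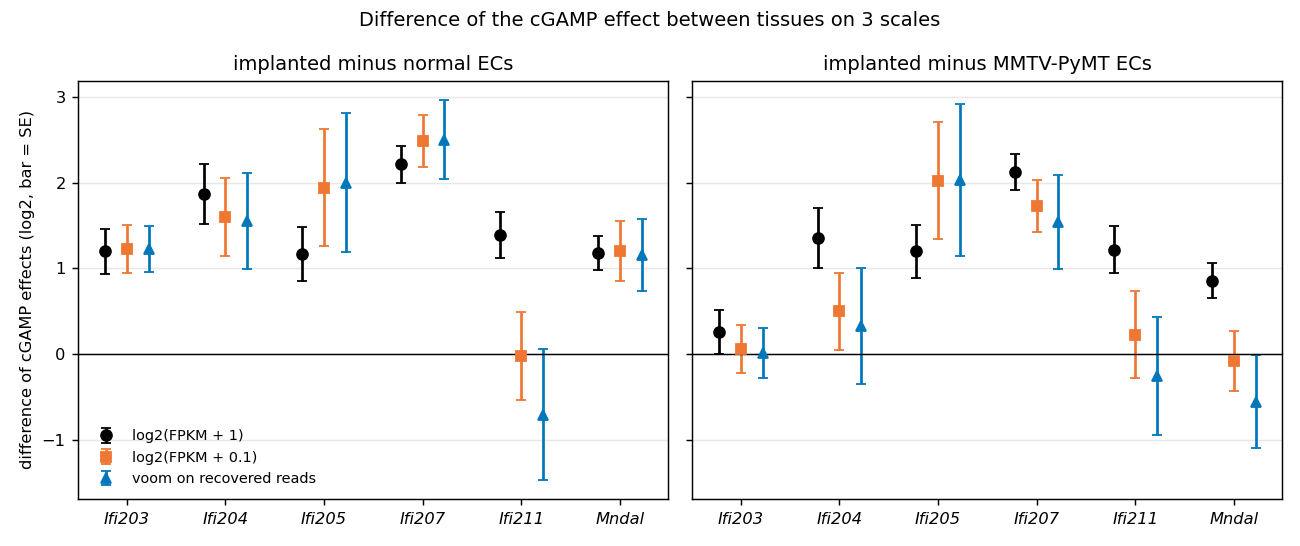
Difference of the cGAMP effect, implanted minus normal ECs (left) and implanted minus MMTV-PyMT ECs (right), for each PYHIN gene on 3 scales; points are limma estimates and bars their SE. Ifi203 and Ifi207 keep their place in the left panel at 1.20 to 1.23 and 2.21 to 2.50, whereas Ifi211 moves from 1.39 to -0.70.

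Resting levels were then compared between tissues under PBS. Ifi203 was the 1 gene called lower in MMTV-PyMT than in normal ECs, by -1.22 ± 0.18 (SE, limma, adjusted p = 3.87e-05), beside 13.9% of all tested genes called in either direction. Mean FPKM of Ifi203 was 2.84 ± 0.574 (SD, n = 3) in MMTV-PyMT and 7.89 ± 0.682 in normal ECs. Ifi207 (-0.47, limma's adjusted p = 0.0140) and Mndal (-0.53, adjusted p = 0.00563) were also lower past the test without reaching the 2-fold limit on this scale, although their mean FPKM in normal ECs was 2.81 and 3.97 times that in MMTV-PyMT ECs. The MMTV-PyMT PBS libraries lay below the normal and implanted PBS libraries without overlap for Ifi203, Ifi204, Ifi207 and Mndal. The share of all tested genes for which this held was not counted. Cell type markers also differed between MMTV-PyMT and normal ECs under PBS. Called lower were 5 of 5 mural, 5 of 6 leukocyte and 1 of 8 endothelial markers (4 lower past the test). Of 7 epithelial or tumour markers, 4 were called higher and 1 lower. The part of these markers in the result was not tested.

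Between implanted and normal ECs under PBS, 0 of 6 genes were called by limma, beside 11.5% of all tested genes. Ifi204 (0.81 ± 0.25, limma's adjusted p = 0.0123) and Ifi211 (1.0 ± 0.19, just under the limit before rounding, adjusted p = 3.86e-04) were higher past the test, and the other 4 genes had unadjusted p-values between 0.322 and 0.914. With a pseudocount of 0.1 and with voom, 2 genes were called in each fit, where voom called 2582 of all tested genes. Ifi203 (1.20 ± 0.18, adjusted p = 8.44e-05) and Ifi204 (1.30 ± 0.25, adjusted p = 5.46e-04) were called higher in implanted than in MMTV-PyMT ECs, beside 7.33% of all tested genes. Ifi211 (0.83, limma's adjusted p = 0.00209), Mndal (0.67, adjusted p = 0.00141) and Ifi207 (0.40, adjusted p = 0.0399) were also higher past the test, with 5.28, 4.98 and 2.51 times the mean FPKM of MMTV-PyMT ECs. The count called was 5 with a pseudocount of 0.1 and 4 with voom, where voom called 2034 of all tested genes. In this comparison 4 of 7 epithelial or tumour markers were called lower. Of 8 endothelial markers, 6 were higher and 1 lower past the test. In implanted against normal ECs under PBS, 4 of 5 mural and 2 of 6 leukocyte markers were called lower. The part of these markers in the results was not tested.

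Under cGAMP, all 6 genes were called higher in implanted than in normal ECs and in implanted than in MMTV-PyMT ECs, beside 14.2% and 10.4% of all tested genes called in either direction. The differences from normal ECs ran from 1.12 (Ifi205) to 2.68 (Ifi204), and those from MMTV-PyMT ECs from 1.27 (Ifi205) to 2.65 (Ifi204). Markers of immune cells moved with these differences. Against MMTV-PyMT ECs, 8 of 9 myeloid markers (median 1.52) and 5 of 6 leukocyte markers (median 1.79) were called higher. Against normal ECs, 6 of 9 myeloid (median 1.61) and 0 of 6 leukocyte markers (median 0.28, with 1 called lower) were. No endothelial marker was called higher (medians 0.62 and 0.56), although 5 of 8 and 4 of 8 were higher past the test. Against normal ECs, 1 endothelial marker was called lower. In both comparisons 2 of 5 fibroblast markers were called higher and 2 of 7 epithelial or tumour markers lower. Others went the opposite way past the test without being called. These were 1 fibroblast marker, lower in both comparisons, and 2 epithelial or tumour markers, higher against normal ECs. Of 5 mural markers, 3 were called lower against normal ECs. The part of these markers in the result was not tested. With the 2 leukocyte-rich libraries left out, 6 of 6 PYHIN genes were called against MMTV-PyMT ECs and 5 of 6 against normal ECs, where Ifi205 no longer reached the 2-fold limit. No implanted cGAMP library overlapped a cGAMP library of another tissue for any of the 6 genes. The share of all tested genes for which this held was not counted, and Ifi205 was tested only through these implanted libraries. With FPKM rescaled to the total reads, which moved the median of all genes by -0.36 in implanted against normal ECs, 3 of 6 genes were called there. MMTV-PyMT and normal ECs were close: 0 of 6 genes were called by limma, beside 10.4% of all tested genes, the ranges of all 6 genes overlapped, and Ifi207 alone had an adjusted p under 0.05 (-0.38 ± 0.15, adjusted p = 0.0483, unadjusted p = 0.0244).

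The make-up of the family differed between treatments and between tissues. Summed over the 6 genes, the level was 10.9 ± 1.30 FPKM (SD, n = 3) in normal ECs under PBS and 48.7 ± 5.74 under cGAMP, 4.28 ± 0.861 and 43.0 ± 12.6 in MMTV-PyMT ECs, and 13.5 ± 0.755 and 177 ± 36.4 in implanted ECs. From PBS to cGAMP, the share of Ifi203 in this sum went from 72.4% ± 2.8 (SD, n = 3) to 60.9% ± 3.3 in normal ECs, from 66.3% ± 1.8 to 57.6% ± 0.7 in MMTV-PyMT ECs, and from 57.5% ± 1.2 to 39.0% ± 2.5 in implanted ECs. Ifi204 went from 9.7% ± 0.3 to 14.9% ± 3.5, from 11.0% ± 4.3 to 17.5% ± 2.3, and from 19.5% ± 4.0 to 29.2% ± 0.4, so that its share in implanted ECs was the highest of the PBS groups as well. Ifi207 went from 5.2% ± 1.3 to 14.7% ± 2.1 in implanted ECs, where Mndal had 6.5% ± 1.0 and 6.4% ± 0.6. In each tissue the share of Ifi203 was lower under cGAMP than under PBS in all 3 libraries, without overlap. Shares were not tested.

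**Figure D4:**
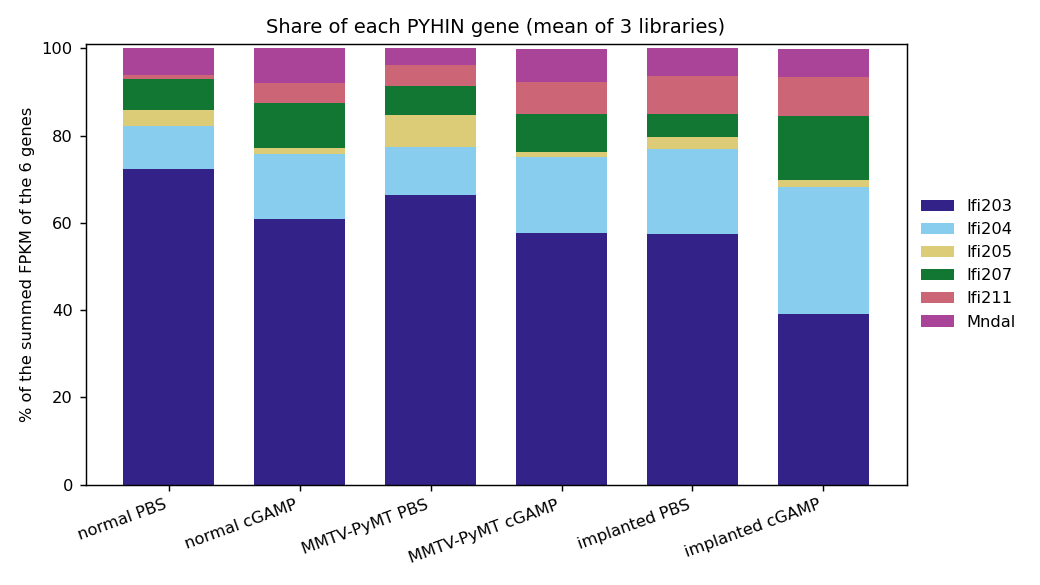
Mean share (%) of each of the 6 PYHIN genes in their summed FPKM, for the 6 groups of 3 libraries; stacked bars add to 100%. The Ifi203 part is smaller under cGAMP than under PBS in each tissue (57.5% and 39.0% in implanted ECs), and that of Ifi204 is larger (19.5% and 29.2%).

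Other PYHIN genes behaved unequally. Of 6 further members that were looked up, Ifi202b and Aim2 had a row. Ifi202b, which carries HIN domains without a pyrin domain and restrains Aim2, had a higher mean under cGAMP than any of the 6 genes in each tissue. It rose from 3.34, 3.23 and 2.50 FPKM to 44.1, 41.3 and 24.4 FPKM in normal ECs, from 1.55, 1.63 and 1.53 to 27.8, 56.3 and 51.2 FPKM in MMTV-PyMT ECs, and from 8.70, 8.85 and 9.60 to 245, 169 and 189 FPKM in implanted ECs. The changes were 3.19 ± 0.23 (SE, limma, adjusted p = 7.89e-08), 4.10 ± 0.23 (adjusted p = 2.47e-09) and 4.31 ± 0.23 (adjusted p = 8.49e-10). Ifi202b shared 0.0% of its 75-base words with other genes, and it was named after its values were seen. Aim2, whose product recruits Pycard and caspase-1, moved little: 0.13 ± 0.17 in normal (limma, adjusted p = 0.611) and 0.36 ± 0.17 in MMTV-PyMT ECs (adjusted p = 0.198). In implanted ECs Aim2 rose by 1.02 ± 0.17 (adjusted p = 2.35e-04), from 1.19, 1.29 and 0.954 FPKM to 3.18, 3.74 and 3.13 FPKM. The pseudogene Ifi203-ps, also named after its values were seen, shares 10.8% of its words with Ifi203 and rose with it, by 1.22, 2.07 and 2.53 (limma, adjusted p between 8.95e-08 and 4.04e-04).

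The genes around DNA sensing gave a mixed picture. Of 26 listed genes for cytosolic DNA sensing and STING, 23 had a row, and 2, 3 and 5 of them were called higher after cGAMP. Of all tested genes, 3.02%, 2.49% and 6.13% were called higher. The list median was 0.00, -0.08 and 0.02. Cgas, the enzyme that makes the natural cyclic dinucleotide, rose by 1.73 ± 0.12, 1.59 ± 0.12 and 1.54 ± 0.12 (limma, adjusted p between 7.30e-08 and 1.35e-07). The differences of these 3 effects were between -0.19 and -0.05 (adjusted p between 0.489 and 0.903). Tmem173, the gene of STING itself, rose by 0.64, 0.98 and 1.15 (limma, adjusted p between 1.26e-05 and 0.00378), from mean levels of 17.5, 15.4 and 36.5 FPKM under PBS. Zbp1, a sensor of Z-form nucleic acid, rose by 1.31, 1.27 and 2.14 (limma, adjusted p between 9.07e-06 and 0.00473). Irf3, the transcription factor that STING signalling activates, fell by 0.55 in normal ECs (limma, adjusted p = 0.00663), with changes of 0.15 and -0.29 in the tumours (adjusted p = 0.514 and 0.104). Trex1, a DNase that removes cytosolic DNA, had no row.

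Interferon receptor signalling had 15 of 15 listed genes in the table, and 8, 8 and 7 of them were called higher after cGAMP. Beside these, 3.02%, 2.49% and 6.13% of all tested genes were called higher. The list median was 1.15, 1.23 and 0.79. Irf7, the interferon-induced factor that amplifies interferon production, rose by 2.39, 2.25 and 2.09 (limma, adjusted p between 1.94e-04 and 6.38e-04). Ifnar1, a chain of the type I interferon receptor, fell by 0.32 in normal ECs (limma, adjusted p = 0.0363) and by 0.42 in implanted ECs (adjusted p = 0.00592), and changed by -0.03 in MMTV-PyMT ECs (adjusted p = 0.892).

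Of 11 inflammasome genes, 7 had a row, and 1, 1 and 7 were called higher after cGAMP, with a list median of 0.27, 0.48 and 1.37. Of all tested genes, 3.02%, 2.49% and 6.13% were called higher. The list includes Nlrp3, with a mean of 3.40 FPKM in implanted ECs under cGAMP and 0.472 or less in each other group. Nlrp3 was thus tested only through that group, and its call there carries no weight. Casp1, the protease that inflammasomes activate, rose by 1.62 ± 0.16 in implanted ECs (limma, adjusted p = 8.51e-07), and its effect there was larger than in normal ECs by 1.49 ± 0.23 (adjusted p = 3.32e-04). Pycard, the adaptor between Aim2 and caspase-1, rose by 0.96 ± 0.16 in normal (limma, adjusted p = 4.01e-04) and 1.22 ± 0.16 in implanted ECs (adjusted p = 1.99e-05), and changed by -0.05 ± 0.16 in MMTV-PyMT ECs (adjusted p = 0.876). For Pycard the effect in MMTV-PyMT ECs was smaller than in normal ECs, with a difference of -1.01 ± 0.23 (adjusted p = 0.0144). Whether the myeloid markers of implanted cGAMP 2 bear on this list was not tested.

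Over the 18 libraries, the genes with the most similar pattern (Pearson correlation of log2(FPKM + 1), a description over libraries that share groups) were Samd9l (0.993), Gm20559 (0.989) and Casp4 (0.989) for Ifi203. They were Pml (0.992), Tdrd7 (0.991) and Relb (0.988) for Ifi204, Isg20 (0.992), Nt5c3 (0.990) and Nampt (0.987) for Ifi207, and Tbrg1 (0.993), Naa20 (0.988) and Rnf19b (0.987) for Ifi211. For Mndal they were Isg20 (0.992), Tut7 (0.992) and Tor1aip1 (0.991). Ifi205 stood apart with Gzmb (0.932), a protease of cytotoxic lymphocyte granules, Evi2a (0.931) and Irf5 (0.922).

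A gene that borders the family on chromosome 1 was not called. Cadm3 (chr1:173333258-173367695), a cell adhesion molecule on the centromere side, changed by -0.31, 0.12 and 0.10 after cGAMP (limma, adjusted p between 0.0882 and 0.603).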

How the data were processed

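The authors sorted the ECs, sequenced directional libraries as paired 75-base reads, checked them with FastQC, aligned them to mm10 with STAR 2.7 and counted them with HTSeq-count. They deposited 1 table of FPKM values. How FPKM were made from counts, and whether counting used the strand, is not given in the sources used here. Columns with no matched sample numbered 0. Columns of normal ECs carry a treatment and a number only and were assigned as the tissue left over. FPKM were whole multiples of 1 step per gene and library, which gave back whole reads (within 0.2 reads) for 100.00% of 16248 genes, 15772 of them with the GENCODE M21 exon length. FPKM denominators were not the read totals.

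Values were fitted as log2(FPKM + 1) with limma 3.58.1 (R 4.3.3, eBayes with a trend, 6 group means over 18 libraries, 12 residual degrees of freedom, 2-sided) in 12 comparisons, adjusted with the Benjamini-Hochberg method over 13983 genes. The fit was tested on simulated data. All replicate pairs differed beyond sampling noise. Members, lists and tests were chosen with earlier results of these data known. Named were all members, 3 most similar genes for each, listed sensing genes and bordering genes. Some items that this rule names are not reported here.

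Alternatives were another pseudocount, 2 other filters on low values, quantile normalization, scaling by total reads, voom, only the groups compared, a replicate block, no trend, another fold limit and leaving out each library.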

Additional observations from a re-analysis of the deposited data

Results flagged for a closer look

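The cGAMP effect differed between tissues, by the limma test of the difference on the log2(FPKM + 1) scale, in 12 cases. It was larger in implanted than in normal ECs for Ifi203 (1.20), Ifi204 (1.87), Ifi205 (1.17), Ifi207 (2.21), Ifi211 (1.39) and Mndal (1.18). It was larger in implanted than in MMTV-PyMT ECs for Ifi204 (1.35), Ifi205 (1.20), Ifi207 (2.12), Ifi211 (1.22) and Mndal (0.86), and larger in MMTV-PyMT than in normal ECs for Ifi203 (0.94). Those of Ifi211 from both other tissues, and that of Mndal from MMTV-PyMT ECs, turned sign with voom on recovered reads (-0.70, -0.25 and -0.55). Ifi205 was tested only through its implanted cGAMP libraries, so that its cases carry no weight.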

How the results depend on the processing

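Counts of called genes after cGAMP stayed at 5 for the fat pad, 5 for spontaneous and 6 for implanted tumours whichever library was left out. With a mean FPKM of at least 5, only Ifi203, Ifi204 and Ifi207 were tested: 3, 3 and 3 were called after cGAMP, 3 and 2 passed for the effect in implanted minus that in normal and MMTV-PyMT ECs, and 3 and 3 were called for implanted against normal and MMTV-PyMT ECs under cGAMP. With a pseudocount of 0.1, 2 genes passed for MMTV-PyMT minus normal and 1 for implanted minus MMTV-PyMT, and under PBS 4 were called for MMTV-PyMT against normal, 2 for implanted against normal and 5 for implanted against MMTV-PyMT ECs. With voom, 2 passed for implanted minus normal and 0 for implanted minus MMTV-PyMT, beside 2449 and 1518 of all tested genes. The voom counts under PBS were 3, 2 and 4, beside 3314, 2582 and 2034 of all tested genes. With no fold limit, the counts of the main fit were 3, 2 and 5 under PBS, and 1 for MMTV-PyMT against normal ECs under cGAMP. A limit of 1 on the difference of effects left 0 for MMTV-PyMT minus normal. Quantile normalization gave 1 for implanted against normal ECs under PBS, and scaling by total reads 3 for implanted against normal ECs under cGAMP. Leaving out single libraries moved the count for the effect in MMTV-PyMT minus normal between 0 and 1, and that for implanted against normal ECs under PBS between 0 and 1. Except where fewer genes were tested, the cause was not tested. For alternatives other than voom, the share of all tested genes is not given, here or above. Those counts therefore cannot be set against that share.

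Same-numbered PBS and cGAMP libraries of a tissue had correlations of their deviations from group means from -0.291 to 0.263. Differently numbered libraries were not correlated for comparison. These values therefore cannot show whether replicate numbers pair the libraries. With the replicate number as a block, 0 genes passed for MMTV-PyMT minus normal (Ifi203, adjusted p = 0.0564), and no other count changed.

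Directions turned for the larger cGAMP effect in implanted ECs of Ifi211 (1.39 from normal and 1.22 from MMTV-PyMT ECs) and of Mndal (0.86 from MMTV-PyMT ECs). The other directions that turned were those of small differences. Quantile normalization gave -0.14 (Ifi207, MMTV-PyMT minus normal), -0.09 (Ifi203, implanted minus MMTV-PyMT), 0.04 and -0.05 (Ifi205, MMTV-PyMT against normal and implanted against MMTV-PyMT under PBS), -0.07 (Ifi204) and 0.00 (Ifi205), both MMTV-PyMT against normal under cGAMP, where total-read scaling gave -0.11 for Ifi204. For Ifi211, a pseudocount of 0.1 gave -0.25 for MMTV-PyMT minus normal and -0.02 for implanted minus normal, and voom -0.45, -0.70 and, for implanted minus MMTV-PyMT, -0.25. For Mndal, implanted minus MMTV-PyMT was -0.08 and -0.55. With single libraries left out, Ifi203 (implanted against normal, PBS) ran from -0.08 to 0.04 and Ifi204 (MMTV-PyMT against normal, cGAMP) from -0.19 to 0.34. The effect in MMTV-PyMT minus normal ran from -0.19 to 0.11 for Ifi205, -0.02 to 0.22 for Ifi207 and -0.05 to 0.41 for Ifi211. Ifi205 under PBS ran from -0.22 to 0.04 (MMTV-PyMT against normal), -0.16 to 0.11 (implanted against normal) and -0.04 to 0.14 (implanted against MMTV-PyMT). Depth limits Ifi211 most, with 1 or 2 reads in each normal PBS library.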
